A study of Caenorhabditis elegans with 14 samples.

Results

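Basement membranes are thin sheets of extracellular matrix that line the body wall muscle, pharynx, intestine, epidermis and gonad of the nematode Caenorhabditis elegans. Type IV collagen and laminin each form a network in these sheets, nidogen links the networks, and secreted matrix proteins and proteases adjust their assembly and remodelling. The genes described here encode such components: emb-9 and let-2 (the chains of type IV collagen), epi-1, lam-1 and lam-2 (a laminin alpha chain, the beta chain and the gamma chain), nid-1 (nidogen), ost-1 (SPARC, a collagen-binding protein), mig-6 (papilin), and mig-17 and gon-1 (secreted metalloproteases of the ADAMTS family that act on gonad shape and migration). They were taken by name, not by their values, as every probe set that the array's annotation assigns to 1 of these genes alone. All 10 were on the array, out of 17118 named genes, and they had 16 of the 22548 tested probe sets. There was 1 probe set for each of let-2, epi-1, nid-1, mig-17 and gon-1, while emb-9, lam-1, lam-2 and ost-1 had 2 each and mig-6 had 3.

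The study measured RNA of whole worms on 14 Affymetrix arrays to ask which genes depend on DAF-19, an RFX transcription factor known for its control of genes of sensory cilia, at different life stages. Adults mutant for daf-19 and daf-12 (3 arrays) were set against adults mutant for daf-12 alone (3 arrays), and first-stage larvae (L1) mutant for daf-19 and daf-12 (4 arrays) against L1 larvae mutant for daf-12 alone (4 arrays). Every group thus carried a daf-12 mutation, and "control" below means daf-12 alone, which the sample descriptions call wild type for daf-19. The daf-19 allele and the number of animals per array are not given in the labels; the protocol places adult harvest 50 hours past the L4 stage, whereas the titles say young adults. The labels call the replicates biological without saying that they came from separate cultures, so p-values measure the spread between these samples. In whole worms, fewer cells of a type and less RNA per cell cannot be told apart.

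Array medians of the deposited log2 signal were 5.91 to 6.02 in adults and 4.72 to 4.76 at L1. In the check of the labels, daf-19 itself (190486_s_at) fell in the mutants (log2 fold change -0.64, SE 0.12, adjusted p = 0.0163 in adults and -0.69, SE 0.10, adjusted p = 0.00281 at L1), with no overlap between mutant and control arrays. The adult call was lost under 5 of 23 alternatives, namely joint quantile normalization (adjusted p = 0.184) and leaving out adult mutant 1 (0.0776), 2 (0.0734) or 3 (0.0517) or adult control 3 (0.0848), and the L1 call with the Gapdh measure described below as a covariate (0.087). Its other probe set (175811_s_at) gave -0.56 in adults, which did not pass (adjusted p = 0.105), and -0.70 at L1 (adjusted p = 0.0125), a call lost with that covariate (0.219) and when only L1 arrays were fitted (0.105). The position of these probes relative to the lesion is not known, so loss of function itself is not checked. Adult control array 1 stood apart among the adult arrays. Its mean correlation over all probe sets was 0.99188 with the other adult controls and 0.99449 with the adult mutants, whereas the other 2 adult controls correlated better with their own group. L1 mutants 1 and 4 also correlated slightly better with the other genotype (0.98603 against 0.9846, and 0.9868 against 0.9864). For adult control array 1, the daf-19 signal was looked at as well. Its daf-19 signal (7.35 in the same probe set) lay with the controls (7.24 and 7.42) and above the mutants (6.65 to 6.76). The log2 signal of the 3' Gapdh control probes minus that of the 5' ones, which reports on RNA quality, was -0.54 to -0.39 in adult mutants, -0.44 to -0.36 in adult controls, 3.83 to 4.12 in L1 mutants and 3.16 to 3.83 in L1 controls.

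**Figure D1:**
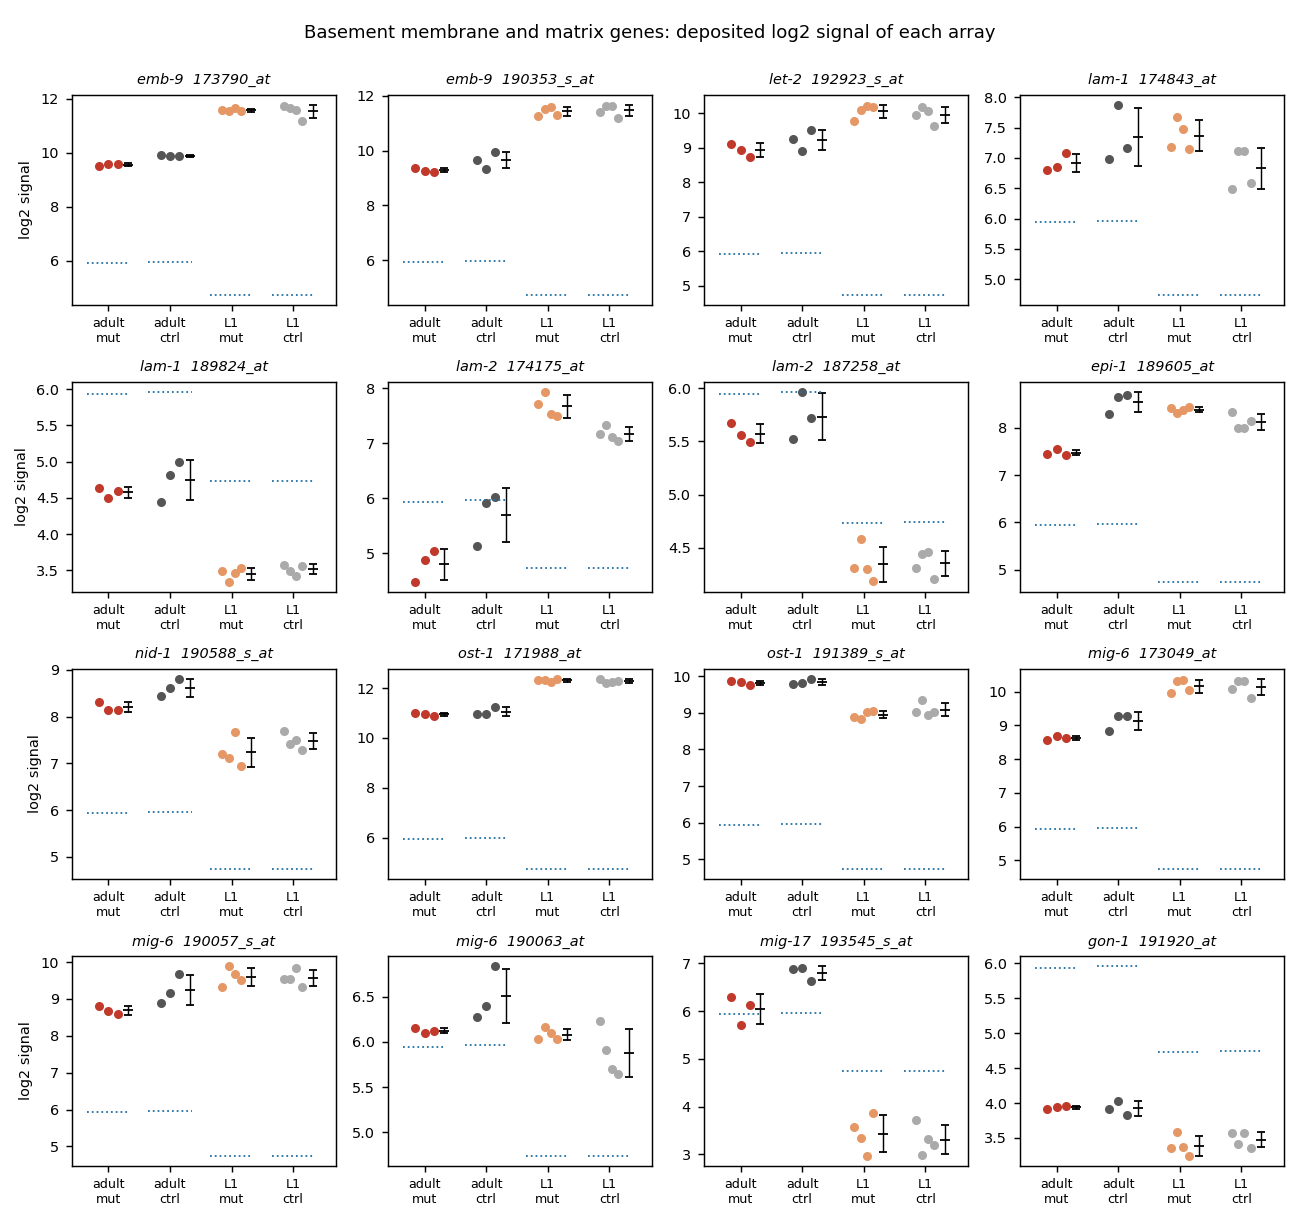
Deposited log2 signal of the 16 probe sets on every array, 1 panel per probe set. Points are arrays, black bars beside them are mean ± SD, and the dotted blue line is the mean array median of each group. In the epi-1 panel all adult mutant points lie below all adult control points, while gon-1 lies well under the line in every group.

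In adults the laminin alpha chain gene epi-1 was 2.10-fold lower in daf-19 mutants than in controls, and it was the single called probe set among the 16. Among the others, values lay lower in the mutants for laminin gamma (lam-2), papilin (mig-6), nidogen (nid-1), the protease mig-17 and a collagen chain (emb-9) with arrays that did not overlap, but these did not pass the test. Of all 16 probe sets, 15 lay below 0 in adults, with a median log2 fold change of -0.37, against 41.5% of all tested probe sets below 0 and a median of 0.02. The test was limma's moderated test with Benjamini-Hochberg adjustment over all tested probe sets at a threshold of 0.05. It called 1 of 16 lower, and 0.71% of all tested probe sets were called lower. At an unadjusted p under 0.05, 9 of the 16 passed, all lower in the mutants, against 7.88% of all probe sets in either direction.

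The epi-1 probe set (189605_at) read 7.45, 7.54 and 7.43 on the adult mutant arrays, against 8.30, 8.64 and 8.70 on the adult control arrays. All mutant arrays lay well below the lowest control array, and the lowest control was array 1. The means were 7.47 ± 0.06 in mutants and 8.55 ± 0.22 in controls (SD, n = 3 each). The log2 fold change was -1.07 (SE 0.11, 95% interval -1.32 to -0.83, adjusted p = 0.000186). Without adult control array 1 it was -1.20 (adjusted p = 2.17e-05), and the call held under all 23 alternatives tried.

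The laminin gamma gene lam-2, whose product joins the alpha and beta chains in every laminin trimer of the worm, had 2 probe sets. The probe set 174175_at read 4.48, 4.88 and 5.04 in adult mutants, against 5.13, 5.92 and 6.03 in adult controls. The arrays did not overlap, although control array 1 came close to the highest mutant. The log2 fold change was -0.89 (SE 0.21, 95% interval -1.34 to -0.45), just short of the threshold (adjusted p = 0.0597). Without adult control array 1 it was -1.17 and passed (adjusted p = 0.000807). It passed under 4 of 23 alternatives, over which it ran from -1.17 to -0.725, with adjusted p from 0.000208 to 0.331. In adults this probe set lay near or below the array median, which it exceeded on 1 of 6 arrays. The other probe set (187258_at) read 5.67, 5.56 and 5.49 in mutants, against 5.52, 5.96 and 5.72 in controls, and these overlapped. It differed by -0.16 (95% interval -0.43 to 0.11, adjusted p = 0.999). The 2 probe sets of lam-2 thus did not agree in size.

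The laminin beta gene lam-1 read 6.80, 6.85 and 7.08 in adult mutants, against 6.98, 7.88 and 7.16 in adult controls, in probe set 174843_at. These overlapped, and the difference was -0.43 (95% interval -0.92 to 0.06, adjusted p = 0.786). Its dimmer probe set (189824_at) read 4.50 to 4.64 in mutants and 4.45 to 4.99 in controls, all below the array median.

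Among the proteases, mig-17 (193545_s_at) read 6.30, 5.70 and 6.13 in adult mutants, against 6.88, 6.90 and 6.63 in adult controls. The arrays did not overlap, with mutant array 2 the lowest. The log2 fold change was -0.76 (SE 0.22, 95% interval -1.23 to -0.29), which did not pass (adjusted p = 0.172). The second protease, gon-1 (191920_at), differed by 0.02 (95% interval -0.20 to 0.23). It lay below the lower quartile of signals on all 14 arrays.

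Papilin, the product of mig-6, is needed for distal tip cell migration in the gonad. The probe set 173049_at read 8.56, 8.69 and 8.62 in adult mutants, against 8.83, 9.29 and 9.29 in adult controls. The second, 190057_s_at, read 8.81, 8.66 and 8.59 in mutants, against 8.88, 9.16 and 9.68 in controls. The last, 190063_at, read 6.15, 6.10 and 6.12 in mutants, against 6.27, 6.40 and 6.84 in controls. In none of the 3 did the groups overlap, and control array 1 was the lowest control each time. The log2 fold changes were -0.51, -0.55 and -0.38 (adjusted p = 0.222, 0.309 and 0.474). Without adult control array 1 the first was -0.67 and passed (adjusted p = 0.0318), as against -0.73 for the second (adjusted p = 0.0525). The first passed under 3 of 23 alternatives, over which its adjusted p ran from 0.00153 to 0.792.

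The type IV collagen gene emb-9, which encodes the alpha 1 chain, read 9.50, 9.60 and 9.58 in adult mutants, against 9.94, 9.87 and 9.88 in adult controls (173790_at). The groups were tight and did not overlap, and the log2 fold change of -0.34 (95% interval -0.59 to -0.09) did not pass (adjusted p = 0.328). Its second probe set (190353_s_at) gave -0.36 (adjusted p = 0.54) with overlapping arrays. The gene let-2, which encodes the alpha 2 chain, read 9.12, 8.95 and 8.73 in mutants, against 9.25, 8.92 and 9.51 in controls, and differed by -0.29 (95% interval -0.66 to 0.07, adjusted p = 0.861).

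Nidogen, nid-1 (190588_s_at), read 8.32, 8.15 and 8.13 in adult mutants, against 8.43, 8.61 and 8.81 in adult controls. The arrays did not overlap, and the log2 fold change of -0.42 (95% interval -0.77 to -0.07) did not pass (adjusted p = 0.452). The SPARC gene ost-1 lay close to 0 in both probe sets, at -0.11 (95% interval -0.30 to 0.09) in 171988_at and -0.02 (95% interval -0.24 to 0.21) in 191389_s_at. Over the whole set, 8 probe sets of 6 genes had every adult mutant array below every adult control array, and 5.89% of all tested probe sets did.

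**Figure D2:**
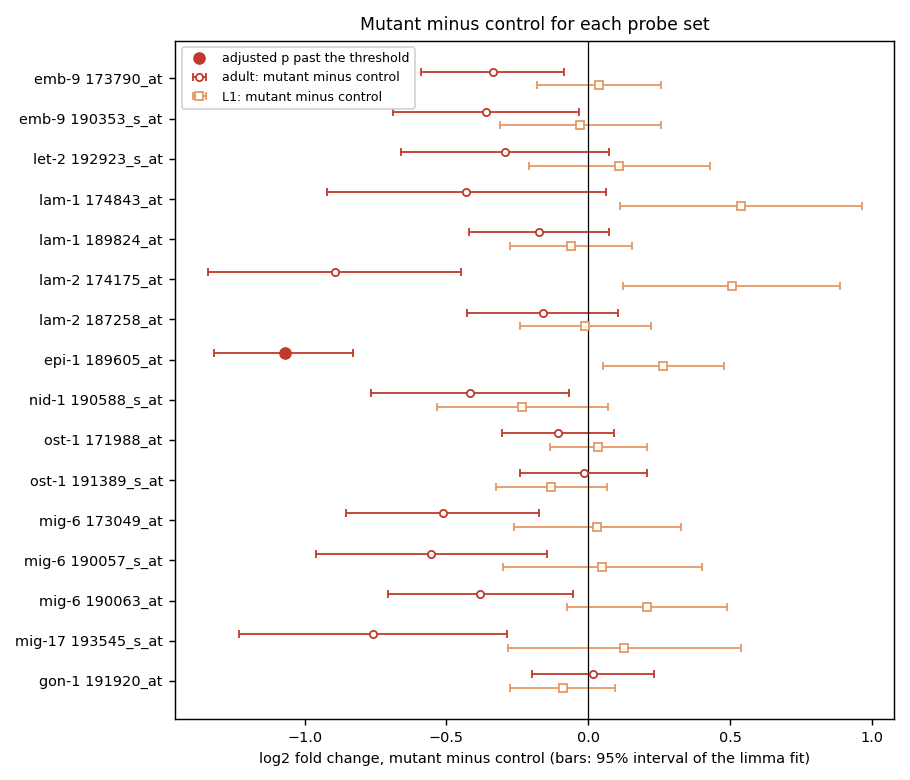
Log2 fold change (mutant minus control) of each probe set in adults (red circles) and at L1 (orange squares), with 95% intervals of the limma fit. The filled circle, epi-1 in adults, is the single value past the threshold, at -1.07.

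Markers of the tissues in a whole worm were compared between the same adult arrays. The mean log2 signal of 6 epidermis markers was 8.03 to 8.27 in adult mutants and 8.16 to 8.95 in adult controls, where control array 1 had the 8.16. None of these 6 passed the test, their median log2 fold change was -0.38, and none lay below the lower quartile on all arrays of a group. The 10 body wall muscle markers, of a tissue that makes type IV collagen in this animal, averaged 9.91 to 10.1 in mutants and 9.94 to 10.2 in controls, with 0 called and a median of -0.12. The 4 pharynx markers averaged 5.93 to 6.12 in mutants and 5.74 to 6.55 in controls, with 0 called. Of 8 measured early embryo markers, 1 was called lower, pes-10, an early embryonic transcript. It read 5.0, 5.19 and 5.53 in mutants, against 6.29, 6.31 and 6.24 in controls (-1.04, SE 0.13, adjusted p = 0.000555). The rest of that list lay between -0.15 (tbx-38) and 0.057 (med-1), and the list's median was -0.025. The somatic gonad, germline, intestine and neuron lists had 0 called, with medians of 0.0067, 0.092, -0.047 and 0.03. The part of these markers in the adult values was not tested.

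Without adult control array 1, 15 of the 16 probe sets again lay below 0, with a median of -0.43, and 3 passed (epi-1, lam-2 174175_at and mig-6 173049_at). In that fit 765 of 22548 tested probe sets (3.39%) were called in either direction, against 231 with all arrays. Array 1 was singled out for its higher correlation with the mutants, so this fit gives no independent support for those calls.

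At L1 none of the 16 probe sets passed in the unpaired main fit, and the highest values belonged to the laminin genes. With the replicate number as a block, by which the L1 arrays are paired, 1 of 16 passed, lam-2 174175_at. In the main fit the count of 0 of 16 stood against 1.14% of all tested probe sets. The median log2 fold change was 0.04 (all probe sets 0.01), and 10 lay above 0 and 6 below. At an unadjusted p under 0.05, 3 passed, the brighter probe sets of lam-1 and lam-2 and that of epi-1, all higher in the mutants. Over all tested probe sets 47.9% lay below 0 and 9.87% passed at that unadjusted p in either direction. Only lam-1 174843_at and lam-2 174175_at had arrays that did not overlap, and 4.38% of all tested probe sets had L1 arrays that did not overlap in either direction.

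The lam-2 probe set 174175_at read 7.71, 7.94, 7.53 and 7.50 in L1 mutants, against 7.17, 7.34, 7.11 and 7.04 in L1 controls. All mutant arrays lay above the highest control. The log2 fold change was 0.51 (SE 0.18, 95% interval 0.12 to 0.89, adjusted p = 0.296). Same-numbered L1 arrays of the 2 genotypes deviated together. With the replicate number as a block this probe set passed (adjusted p = 0.0129), the single member call at L1 in that fit. That fit called 525 of all tested probe sets at L1, against 257 without the block. The other lam-2 probe set differed by -0.01 (95% interval -0.24 to 0.22).

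The lam-1 probe set 174843_at read 7.18, 7.68, 7.47 and 7.14 in L1 mutants, against 6.49, 7.12, 7.12 and 6.59 in L1 controls. The lowest mutant lay just above the highest control. The log2 fold change was 0.54 (SE 0.20, 95% interval 0.11 to 0.96, adjusted p = 0.327). Its dimmer probe set lay below the lower quartile on all 8 L1 arrays and differed by -0.06.

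The epi-1 probe set read 8.42, 8.32, 8.37 and 8.43 in L1 mutants, against 8.34, 8.0, 7.99 and 8.15 in L1 controls, where control array 1 overlapped with the mutants. The log2 fold change was 0.27 (SE 0.10, 95% interval 0.05 to 0.48, adjusted p = 0.331). For the other genes the L1 differences ran between -0.23 for nid-1 and 0.21 for mig-6 190063_at, and both collagen genes lay within 0.11 of 0. The Gapdh measure, given above, met at 3.83 in the lowest L1 mutant and the highest L1 control and otherwise lay higher in the mutants, and the actin one read 2.83 to 3.06 in mutants and 2.44 to 2.88 in controls. With the Gapdh measure as a covariate, 0 members passed at L1, where 95 probe sets were called in all, against 257 without it. None of the marker lists of 8 tissues had a called gene at L1.

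The interaction, the adult genotype difference minus the L1 one, tested whether the genotype difference itself differed between the stages. The laminin genes called were epi-1 and lam-2 174175_at, both with a more negative value in adults, which makes 2 of 16 against 0.448% of all tested probe sets called below 0. The difference for epi-1 was -1.34 (SE 0.15, 95% interval -1.66 to -1.01, adjusted p = 0.000468), from -1.07 in adults and 0.27 at L1. For lam-2 174175_at it was -1.40 (SE 0.27, 95% interval -1.98 to -0.81, adjusted p = 0.0255), from -0.89 in adults and 0.51 at L1. The other lam-2 probe set, 187258_at, gave -0.15 (SE 0.16, adjusted p = 0.926) and did not pass. The third laminin gene lam-1 gave -0.97 (SE 0.30, adjusted p = 0.22) in its brighter probe set, which did not pass. Its dimmer probe set gave -0.11 (SE 0.15, adjusted p = 0.953).

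Over all 16 probe sets the median interaction was -0.39, with 14 below 0, and 8 passed at an unadjusted p under 0.05. Over all tested probe sets the median was 0.02, 46.4% lay below 0 and 8.93% passed at that unadjusted p. The epi-1 interaction passed under every alternative tried. The lam-2 interaction did not pass with the Gapdh measure as covariate (-1.41, adjusted p = 0.123), nor when any of 6 arrays was left out. Its adjusted p was 0.0561 without L1 control 3, 0.0565 without L1 control 4, 0.08 without adult mutant 1 and 0.0585 without adult mutant 2. Without adult control 2 it was 0.097, and without adult control 3 it was 0.0796. It was called without adult control array 1 (-1.68, adjusted p = 0.000464).

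**Figure D3:**
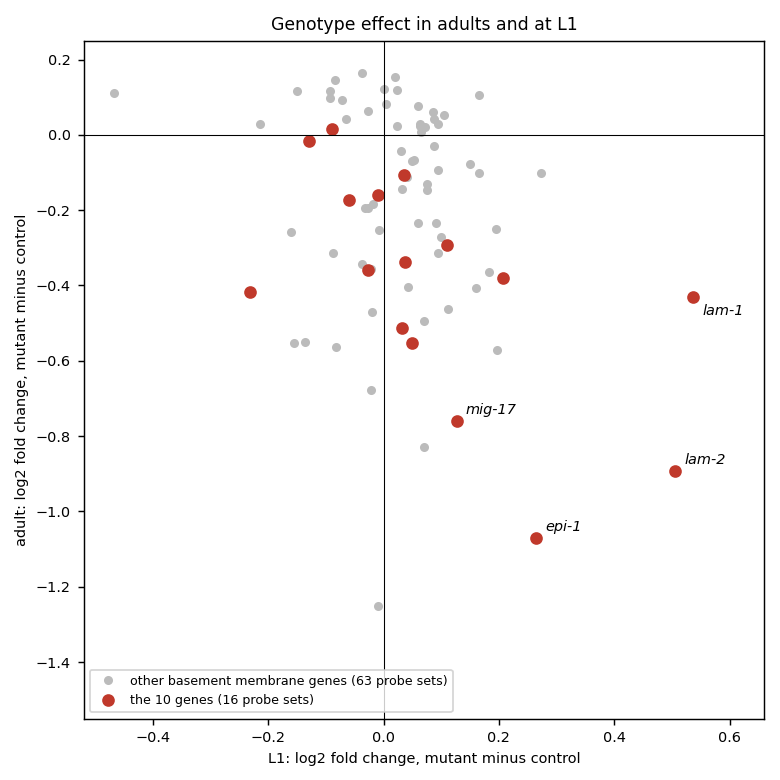
Genotype difference in adults (vertical axis, log2) against that at L1 (horizontal axis, log2) for the 16 probe sets (red) and for 63 probe sets of 40 other basement membrane genes (grey). The red points for epi-1, lam-2 174175_at and lam-1 174843_at lie to the right and below 0. Their L1 values are 0.27, 0.51 and 0.54, and their adult values are -1.07, -0.89 and -0.43. The red points for lam-2 187258_at and lam-1 189824_at lie just left of 0, at L1 values of -0.01 and -0.06. Their adult values are -0.16 and -0.17.

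A further 40 genes of basement membranes, chosen from the field's knowledge of the pathway with earlier results of these data known (perlecan, collagen XVIII, fibulin, agrin, peroxidasins, integrins, other receptors, modifying enzymes and proteases), had 63 probe sets. In adults 0 passed, against 231 of 22548 tested probe sets. At an unadjusted p under 0.05, 16 lay lower and 0 higher, with a median of -0.10 over the 63. Of all tested probe sets 7.88% passed at that p in either direction. The smallest p belonged to pdi-2, a subunit of the collagen prolyl 4-hydroxylase, which read 6.73, 6.62 and 6.93 in mutants, against 7.05, 7.28 and 7.36 in controls (172947_at, -0.47, SE 0.11, adjusted p = 0.0576). The next was cri-2, a predicted inhibitor of metalloproteases, which read 9.81, 9.70 and 9.63 in mutants, against 10.19, 10.37 and 10.23 in controls (-0.55, SE 0.15, adjusted p = 0.128). Neither pair of groups overlapped. The first passed under 4 of 23 alternatives, among them the fit without adult control array 1 (-0.56, adjusted p = 0.0114), and the second likewise under 4 of 23, among them joint quantile normalization (-0.69, adjusted p = 0.039).

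At L1, 1 of the 63 was called, near the rate of 1.14% over all tested probe sets. It was the collagen receptor kinase ddr-1, a discoidin domain receptor, which fell in the mutants. It read 5.14, 5.07, 4.93 and 4.58 in mutants, against 5.52, 5.28, 5.40 and 5.39 in controls (190708_at, -0.47, SE 0.11, adjusted p = 0.0476). All mutant arrays lay below all controls, and the call was lost under 16 of 23 alternatives. None of the 63 was called in the interaction, against 206 of 22548 tested probe sets.

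Between the stages, all probe sets of the collagen genes emb-9 and let-2, and 1 probe set each of lam-2, ost-1 and mig-6, were lower in adults than at L1 under every scaling tried, and mig-17 was higher. Because array medians differ between stages, values here are log2 signals relative to each array's median. Of the 16, 12 were called lower and 1 higher in adults in both genotypes. Over all tested probe sets, 51.2% were called lower in mutants and 52.3% in controls, and 33.9% were called higher in mutants and 33.8% in controls. The median over the 16 was -1.89 in mutants and -0.79 in controls, against -0.29 and -0.33 over all probe sets. Under all alternatives run for the stage contrasts, which were the block, the scalings, the filter on dim probe sets, the variance model, the array weights and leaving out each array, and in both genotypes, 7 probe sets of 6 genes were called in one direction, 6 of them lower and 1 higher in adults.

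Among these, emb-9 173790_at lay 3.62 ± 0.05 above the array median in adult mutants and 3.93 ± 0.09 in adult controls (SD, n = 3 each), against 6.84 ± 0.05 in L1 mutants and 6.80 ± 0.26 in L1 controls (SD, n = 4 each). The adult minus L1 difference was -3.22 in mutants and -2.87 in controls (SE 0.12, adjusted p = 5.36e-13 and 2.13e-12). The second emb-9 probe set gave -3.34 and -3.04, and let-2 gave -2.33 and -1.95. For lam-2 174175_at the difference was -4.07 in mutants and -2.70 in controls (SE 0.18). The ost-1 probe set 171988_at differed by -2.56 and -2.44, and mig-6 173049_at by -2.75 and -2.23.

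The protease gene mig-17 went the other way. Relative to the array median it stood at 0.10 ± 0.32 in adult mutants and 0.84 ± 0.20 in adult controls, against -1.30 ± 0.38 in L1 mutants and -1.43 ± 0.29 in L1 controls. All 4 L1 control arrays lay below the lower quartile, so the rise in controls is given as at least 1.85, or at least 3.60-fold. The test was of the fitted difference in controls, 2.27 (SE 0.21, adjusted p = 5.87e-08), not of this bound. In L1 mutants 3 of 4 arrays lay below the lower quartile. The fitted difference in mutants, 1.41 (SE 0.21, adjusted p = 1.36e-05), thus rests on L1 signals that are mostly this dim.

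The other 9 probe sets did not keep one called direction under those alternatives. The lam-2 probe set 187258_at differed by 0.026 in mutants (adjusted p = 0.839) and 0.15 in controls (adjusted p = 0.23). With deposited values as they stand, which carry a median shift of 0.91 in mutants and 0.90 in controls between the stages, lam-1 174843_at, epi-1, nid-1, ost-1 191389_s_at, mig-6 190063_at and gon-1 turned to above 0 in controls. The 2 probe sets of a gene also differed in how far they moved: for lam-2 the first exceeded the second by 3.32 in L1 mutants and 2.81 in L1 controls, whereas in adults the same difference was -0.77 in mutants and -0.04 in controls. For ost-1 the corresponding excess was 1.14 and 1.23 in adult mutants and controls, against 3.36 and 3.20 in L1 mutants and controls.

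**Figure D4:**
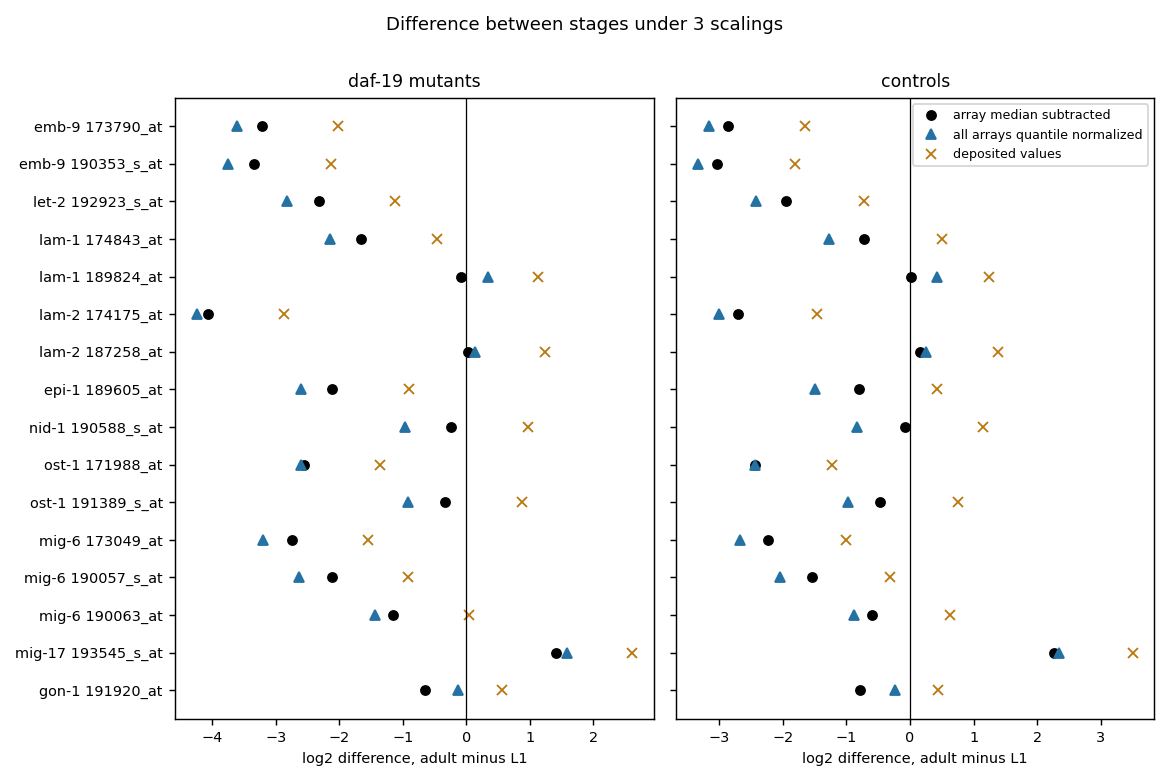
Adult minus L1 difference (log2) of each probe set in mutants (left) and controls (right) under 3 scalings. Circles subtract each array's median, triangles come from quantile normalization of all arrays together and crosses are deposited values. Both emb-9 probe sets stay below 0 throughout and mig-17 above it, whereas nid-1 and gon-1 change side.

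Tissue marker signals of whole worms also differed between stages, as did the control signal that reports on RNA quality. All 10 germline markers were called higher in adults in both genotypes, with a median of 6.00, and 9 of 10 body wall muscle markers were called lower, with medians of -2.50 in mutants and -2.20 in controls. The Gapdh 3' minus 5' signal differed by several log2 units between stages, as given above. Stage, its normalization and this measure cannot be told apart in these arrays.

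Among the other basement membrane genes, 41 of 63 probe sets (31 genes) were called lower and 18 (16 genes) higher in adult controls, with 9 genes having both, against the 52.3% lower and 33.8% higher over all probe sets given above. The 4 genes with the most negative probe set in controls were unc-52, perlecan (-5.85), pat-2, an integrin alpha chain (-4.57), unc-6, netrin (-4.40), and adt-2, an ADAMTS protease (-4.36). Their other probe sets lay nearer to 0, and that of unc-6 did not pass (0.31, adjusted p = 0.0826). On the other side stood hse-5, the heparan sulfate epimerase (3.96), and mig-22, a chondroitin synthesis factor (3.03). The glypican gene lon-2 (188083_at) and timp-1, a metalloprotease inhibitor, lay below the lower quartile on all 4 L1 control arrays, so their rises are given as at least 2.57 and at least 2.79. The other lon-2 probe set (174576_at) went the opposite way, with -1.37 in controls (adjusted p = 1.32e-07).

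The genes whose levels followed the mean of emb-9 and let-2 most closely across the 14 arrays, relative to array medians, were unc-96 (Pearson r = 0.998), bet-2 (0.997), tln-1 (0.996), ptp-3 (0.996) and unc-54 (0.996). All of these genes were lower in adults than at L1, which these r values share. With group means removed, the leading genes were W07A12.4 (r = 0.913), unc-96 (0.908), F49B2.6 (0.89), F53H4.2 (0.883) and T26H5.4 (0.879) over 14 arrays. Both lists hold the highest r among all non-member genes, and no test was applied to them. The means of F53H4.2 and T26H5.4 lay below the array median in every group. Among the 120 pairs of the 16 probe sets, the residual r had a median of 0.17 (range -0.54 to 0.89), with emb-9 190353_s_at and let-2 the highest at 0.89. The other emb-9 probe set gave 0.46 with let-2 and 0.48 with emb-9 190353_s_at.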

How the data were processed

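Whole-worm RNA on 14 Affymetrix arrays was analysed from the deposited log2 signals per probe set. Per the labels' protocols, 6 ug of total RNA went into each biotinylated cRNA preparation. How the signals were background-corrected, summarised and normalized is not given in the sources used here. Reading the values themselves gave log2 as the unit. Leaving out 77 control probe sets left 22548 to test. Of these 20766 were annotated to 1 gene, 887 to several and 895 to none listed; a RefSeq gene table (assembly WBcel235) held 20701 and changed 0 symbols. No detection calls were used; a probe set in the lowest 25% of an array was treated as dim. All 14 arrays entered a limma 3.58.1 model (R 4.3.3) with 1 mean per group, 10 residual and 4.18 prior degrees of freedom, two-sided and with Benjamini-Hochberg adjustment within a contrast at 0.05. Stage contrasts used values minus each array's median. The median SE was 0.11 (log2) at L1 and 0.12 in adults, a precision set by how many arrays there were.

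The members, lists and named genes were chosen with earlier results of these data known. Named were all 10 members, daf-19, the leading other basement membrane genes by p (genotype) or size (stage), and the 5 genes most like emb-9 and let-2. Same-numbered L1 arrays deviated from their group means together (r = 0.423, 0.317, 0.188 and 0.236), so the numbers pair the L1 arrays; in adults r was 0.437, 0.108 and 0.0359, so they were not taken as pairs. No 2 arrays held identical values. Alternatives were the replicate block, 3 scalings, a filter on dim probe sets, trended robust variance, array weights (whose estimation stopped before its tolerance was reached), the Gapdh measure as covariate, single-stage fits and leaving out each array. The code was tested on simulated data.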

Additional observations from a re-analysis of the deposited data

Results flagged for a closer look

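In 2 laminin probe sets the genotype difference in adults differed from that at L1 by the interaction test. For lam-2 174175_at the adult value minus the L1 value was -1.40 (SE 0.27, adjusted p = 0.0255), with mutant arrays all below control arrays in adults and all above them at L1. That call was lost under 7 of 22 alternatives, and the gene's other probe set gave -0.15 (adjusted p = 0.926). For epi-1 189605_at it was -1.34 (SE 0.15, adjusted p = 0.000468), with adult mutant arrays all below the controls and L1 arrays that overlapped. Of 32 groups of 4 L1 arrays checked for a single array far from the others, 0 had one.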

How the results depend on the processing

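The adult count of 1 called member was 3 with the replicate block, 2 with trended robust variance and 9 with array weights. It ran from 1 to 3 when arrays were left out in turn, the 3 being the fit without adult control array 1. Over all 22548 tested probe sets, adult calls rose from 231 to 427 (block), 247 (trended robust variance) and 1996 (array weights). They were 765 without adult control array 1. With the block, lam-2 174175_at (adjusted p = 0.00121) and mig-6 173049_at (0.0384) joined epi-1 in adults. The adult numbers were not shown to pair the arrays, and adult mutant 2 correlated best with a control of another number. The L1 count of 0 was 1 with the replicate block, by which the L1 arrays are paired. L1 calls over all tested probe sets were 525 with the block, against 257 without it. The interaction count of 2 was 4 with array weights, 1 with the Gapdh covariate, and 1 to 2 without single arrays. With the replicate block it was 2. Over all tested probe sets the interaction calls were 206, and 905 with array weights, 97 with the Gapdh covariate and 420 with the block. The array weights gave adult control array 1 0.52 and adult control array 2 5.03. The cause of these moves was not tested. The epi-1 call in adults held under 23 alternatives (-1.20 to -0.87, adjusted p from 3.73e-07 to 0.0102), and its interaction under 22 (-1.46 to -1.12). The block changed no other member call.

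Signs of some stage differences changed with the scaling. Deposited values carry a median adult minus L1 shift of 0.91 in mutants and 0.90 in controls. In deposited values the mutant differences were 1.12 for lam-1 189824_at, 0.96 for nid-1, 0.87 for ost-1 191389_s_at, 0.043 for mig-6 190063_at and 0.55 for gon-1. The control differences were 0.51 for lam-1 174843_at, 0.43 for epi-1, 1.15 for nid-1, 0.76 for ost-1 191389_s_at, 0.63 for mig-6 190063_at and 0.45 for gon-1. Joint quantile normalization turned lam-1 189824_at to 0.33 in mutants. Precision is limited by how few arrays each group has: the adult differences of the collagen probe sets had SEs of 0.12, 0.15 and 0.17.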

Other observations

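The other laminin alpha gene, lam-3, was singled out after its values were seen. Its probe set 182257_at read 5.69, 5.74 and 6.05 in adult mutants, against 5.67, 7.73 and 7.82 in adult controls, and 188440_at read 5.02, 4.94 and 5.04 in mutants, against 4.97, 6.30 and 6.22 in controls. Adult control array 1 lay with the mutants in both, and the log2 fold changes of -1.25 and -0.83 did not pass (adjusted p = 0.225 for both).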
